A study of Mus musculus with 18 samples.

Results

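The 32 genes described here carry out or regulate the oxidation of fatty acids in mitochondria and peroxisomes. They were matched by symbol to the count table of mature brown adipocytes. All 32 were found among the 54347 genes listed, and all 32 were among the 14949 genes that passed the filter on low counts and were tested. The cells were of the line wt1-SAM, immortalised mouse brown preadipocytes that carry the CRISPR activation machinery SAM in every group. They had been differentiated with rosiglitazone, T3, dexamethasone, insulin, indomethacine and IBMX, so that all groups, controls included, had received an agonist of PPARγ. On day 4 the cells were reverse transfected with 1.4 µl of a 10 µM locked nucleic acid gapmer (LNA) per 500000 cells, and they were harvested on day 7. An LNA gapmer is a short modified antisense oligonucleotide that directs cleavage of the RNA it pairs with. The control LNA (ctrlA) was non-targeting, and LNA1 and LNA2 were directed against the long non-coding RNA Gm15551. Cells were either unstimulated or had been treated for 24 h with 1 µM isoproterenol, a β-adrenergic agonist. Each of the 6 groups (ctrlA, LNA1 and LNA2, unstimulated or with isoproterenol) had 3 libraries of polyadenylated RNA, numbered 2, 3 and 4. All came from 1 cell line, and nothing states that the numbers mark separate cultures, so p-values measure only the spread between these libraries, which may be technical.

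In β-oxidation, fatty acids are activated to acyl-CoA, carried into the mitochondrion by the carnitine shuttle and shortened in repeated cycles of dehydrogenation, hydration, a further dehydrogenation and thiolysis. The electrons of the first step pass through the electron transfer flavoprotein to the respiratory chain. Peroxisomes shorten very long and branched chains by a related set of enzymes. In brown adipocytes, adrenergic stimulation releases fatty acids from lipid droplets, and these are both the fuel of heat production and activators of the uncoupling protein Ucp1. Many genes of the pathway are known targets of PPARA, a nuclear receptor that binds DNA with RXR at direct repeats of AGGTCA spaced by 1 base.

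Both targeting LNAs match Gm15551, and a match shows where an LNA could pair, not what it changed in the cells. Their sequences and sites are shown here. The non-targeting sequence is given beside them, 5′ to 3′, all in lower case.
ctrlA: aacacgtctatacgc
LNA1: gatgactgagattaga
LNA2: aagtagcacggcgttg
LNA1 and LNA2 are each the reverse complement of 1 stretch of 16 bases in exon 2 of Gm15551, an antisense gene on the minus strand at chr3:126667329-126669044 (GRCm38). The site of LNA1 was chr3:126667502-126667517 and that of LNA2 was chr3:126667608-126667623, while ctrlA had 0 matches in the transcript. None of the 3 sequences had a full match in any transcript of the 32 genes, and other genes were not searched. The longest complementary run in a member was 9 bases for ctrlA (Acaa2), 11 for LNA1 (Etfdh) and 9 for LNA2 (Acadm). Gm15551 itself was counted 7 to 14 times in the unstimulated ctrlA libraries, 3 to 12 times with LNA1 and 1 to 13 times with LNA2. After isoproterenol it was counted 2 to 9 times with ctrlA, 1 to 4 times with LNA1 and 1 to 5 times with LNA2. The groups overlapped in both states, and with so few counts a knockdown was not detectable at this depth. The paper itself reports that both LNAs robustly lowered Gm15551 by day 7 against the non-targeting LNA. The gene did not pass the filter and was not tested.

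Promoters are shown for the 3 genes that passed the test below (Pdk4, Acot2 and Acadl). Those of Slc25a20, 1 of 3 members with a match to the PPARA element, and of Hadha, which faces its partner Hadhb, are also shown. The match in Slc25a20 had 2 mismatches and began 6 bases after the start of the gene. The windows of Echs1 and Etfa, which also held a match, are not shown. Each promoter shown is the RefSeq window (GRCm38.p6) of 250 bases before to 50 bases after the start of the gene, read 5′ to 3′ on the strand of the gene. Capitals mark the match to the direct repeat in Slc25a20, a match to TGACG on the opposite strand in Acot2, and in Hadha the 228 bases that also lie in the window of Hadhb. Pdk4 (chr6:5496229-5496528, minus), Slc25a20 (chr9:108661886-108662185, plus), Acot2 (chr12:83987611-83987910, plus), Acadl (chr1:66863260-66863559, minus) and Hadha (chr5:30154931-30155230, minus) are given in this order.
Pdk4: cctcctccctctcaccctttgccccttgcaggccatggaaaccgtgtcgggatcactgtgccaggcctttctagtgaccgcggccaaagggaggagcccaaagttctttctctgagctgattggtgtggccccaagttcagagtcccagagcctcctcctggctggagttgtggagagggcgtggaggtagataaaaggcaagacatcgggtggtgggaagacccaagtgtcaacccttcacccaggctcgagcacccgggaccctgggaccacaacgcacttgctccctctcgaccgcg
Slc25a20: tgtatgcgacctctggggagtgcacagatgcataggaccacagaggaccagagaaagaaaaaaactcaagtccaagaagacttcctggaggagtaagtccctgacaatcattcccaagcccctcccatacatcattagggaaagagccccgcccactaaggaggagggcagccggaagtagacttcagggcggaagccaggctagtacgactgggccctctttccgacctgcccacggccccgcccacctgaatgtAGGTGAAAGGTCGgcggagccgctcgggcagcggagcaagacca
Acot2: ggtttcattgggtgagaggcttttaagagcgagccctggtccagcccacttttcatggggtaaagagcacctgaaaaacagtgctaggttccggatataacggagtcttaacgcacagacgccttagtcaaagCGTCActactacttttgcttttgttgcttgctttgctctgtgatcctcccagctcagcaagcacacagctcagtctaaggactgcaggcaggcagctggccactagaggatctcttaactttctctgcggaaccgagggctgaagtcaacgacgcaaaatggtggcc
Acadl: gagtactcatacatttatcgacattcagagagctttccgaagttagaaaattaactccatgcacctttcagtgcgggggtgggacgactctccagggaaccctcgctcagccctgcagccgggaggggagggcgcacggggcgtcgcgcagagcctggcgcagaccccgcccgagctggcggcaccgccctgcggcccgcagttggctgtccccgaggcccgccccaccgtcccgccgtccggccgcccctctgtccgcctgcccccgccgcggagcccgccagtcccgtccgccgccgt
Hadha: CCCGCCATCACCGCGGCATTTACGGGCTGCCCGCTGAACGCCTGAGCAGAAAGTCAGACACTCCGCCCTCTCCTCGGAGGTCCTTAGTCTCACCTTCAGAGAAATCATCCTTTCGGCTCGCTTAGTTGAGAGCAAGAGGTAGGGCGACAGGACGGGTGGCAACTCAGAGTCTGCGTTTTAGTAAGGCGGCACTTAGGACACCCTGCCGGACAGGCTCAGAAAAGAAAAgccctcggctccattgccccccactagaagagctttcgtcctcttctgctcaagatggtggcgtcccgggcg
Of the 32 genes, 26 had a promoter in the RefSeq table. The direct repeat (AGGTCA, any 1 base and AGGTCA again, on either strand, with at most 2 mismatches in its 12 fixed bases) was found in 3 of these 26 (11.5%): Slc25a20, Echs1 and Etfa. Of all 32851 promoters of that length 3.86% held one, and of those of genes tested 2.92%. The single element AGGTCA, which lies within the direct repeat, was found in 4 of 26 (Cpt1a, Acadvl, Acadm and Echs1), or 15.4%, against 16.3% of all promoters and 12.7% of the promoters of genes tested. The full cAMP response element TGACGTCA was found in 0 of 26, against 1.79% of all promoters and 2.98% of those of genes tested. Its TGACG part was found in 9 of 26 (34.6%), against 20.8% of all promoters and 30.4% of the promoters of genes tested. Pdk4, Acadl and Hadha held none of these letters in their windows. A match is a description of the window and not a binding site.

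Hadha and Hadhb, the subunits of the mitochondrial trifunctional protein, start head to head on chromosome 5. Their starts lie 273 bases apart in the RefSeq windows and closer together in GENCODE. Their values are given together below.

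The 18 libraries held 9167560 to 19723000 counts (median 12914300). Values are given as CPM, scaled by library total and the TMM factor of the library. The floor of detection was set at 3 counts, or 0.152 to 0.327 CPM by library total alone. The 6 libraries numbered 2 stood apart from the others. In them mitochondrial transcripts took 7.86% to 9.79% of all counts, against 2.56% to 4.97% in the 12 libraries numbered 3 and 4. The rRNA gene CT010467.1 took 2.88% to 14.3% in the libraries numbered 2 and 0.285% to 1.04% in the others. Every group held 1 library of each number, and the part of these shares in the results was not tested. Same-numbered libraries deviated together across all genes. Each comparison of the members is therefore given both without and with the replicate number as a block (a term for each number in the model). Their counts are also given without the libraries numbered 2.

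The labelled cell type was checked against adipocyte markers. Fabp4, a fatty acid carrier of adipocytes, was abundant in every library, at 7081 to 20718.8 CPM, while Dio2, a deiodinase of active brown fat, was at 0 to 0.340 CPM. Ucp1 lay between 0.621 and 1.57 CPM in unstimulated cells and between 9.40 and 16.5 CPM after isoproterenol. Cidea had 3.40 to 25.4 CPM, Prdm16 0.570 to 11.8, Cox7a1 0.915 to 4.56 and Cox8b 0.266 to 2.05 CPM. Ebf2 and Ppargc1a lay between 16.1 and 92.0 CPM, and Adipoq, Plin1, Cebpa and Pparg at or above 116 CPM. Of the preadipocyte and fibroblast list, Col1a1 had 65.4 to 246 CPM and Col3a1 110 to 286 CPM. Pdgfra and Ly6a lay between 5.68 and 63.3 CPM, and Dlk1, Cd34 and Thy1 at or under 1.224 CPM. Of 5 macrophage markers, Ptprc, Adgre1 and Itgam were at or under 0.444 CPM in all libraries, while Cd68, a lysosomal protein, lay between 7.83 and 42.4 CPM and Csf1r between 0.0887 and 2.31 CPM. In bulk RNA, fewer cells of a type and less RNA per cell cannot be told apart.

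Levels were compared between genes per kilobase of annotated exon, as the mean CPM per kb over the 18 libraries. The flavoprotein subunits and the dehydrogenases of longer chains led the order. Etfa and Etfb, the subunits of the electron transfer flavoprotein, had 288 ± 42.7 and 267 ± 41.5 CPM per kb (SD, n = 18). Acadvl, Acadl and Acadm, the dehydrogenases of very long, long and medium chains, followed at 256 ± 36.1, 251 ± 47.8 and 201 ± 43.6 CPM per kb. Acaa2, the mitochondrial thiolase, had 177 ± 36.3 CPM per kb, and its lowest library lay above the highest of Hadha, the next gene in the order, at 92.9 ± 12.4 CPM per kb. The genes from Hadha down to Slc25a20, at 20.5 CPM per kb, had ranges that overlapped from each to the next. Below them came Cpt1a (9.12), Cpt1b (8.08), Ppara (6.06) and Acad11 (5.89), then Acox3 (2.94) and Ehhadh (2.54 CPM per kb). Acot1 was lowest at 0.124 CPM per kb, with 2 to 12 counts per library. Of the 31 pairs of neighbours in the order, 25 lay nearer to each other than the larger of their SDs, and 27 had overlapping ranges. With the length of the longest transcript in place of all annotated exon, the rank of a gene shifted by up to 5 places. On that length Acadm led, at 384 CPM per kb, followed by Etfa at 379, and Hadha, at 202 ± 26.8, ranked above Acaa2 at 177 ± 36.3 with overlapping ranges. The single gap between neighbours on both lengths was the one above Acot1.

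**Figure D1:**
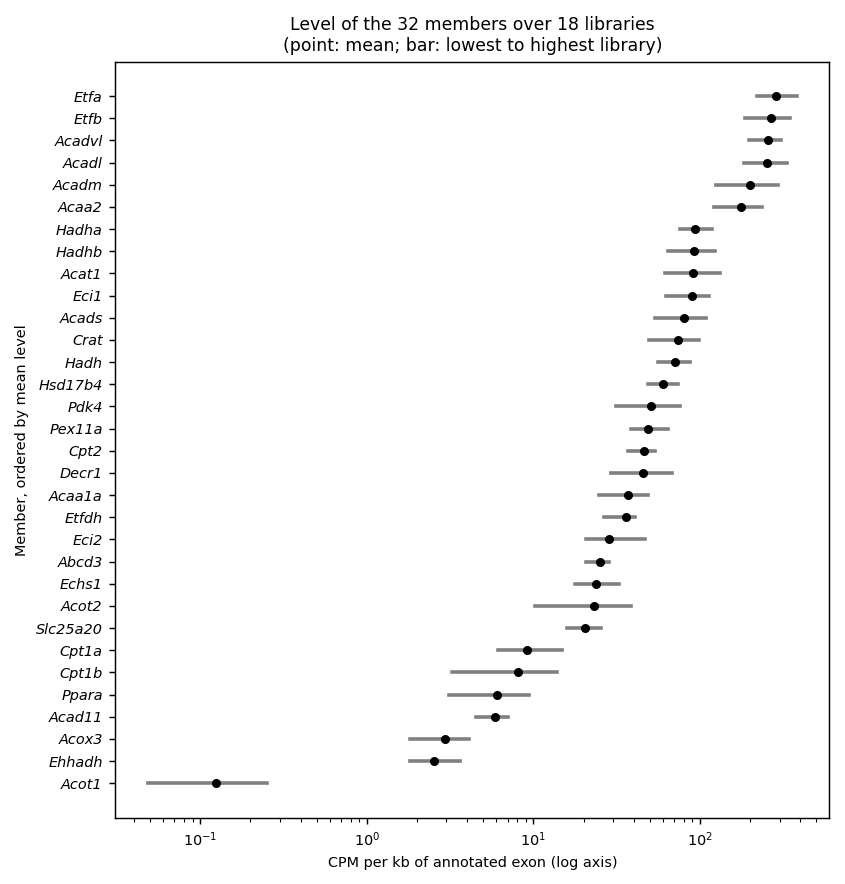
Mean level of each of the 32 genes in CPM per kb of annotated exon (points, log axis) with the range from the lowest to the highest of the 18 libraries (bars). Etfa leads at 288 CPM per kb and Acot1 is last at 0.124 CPM per kb, and the gap between Acaa2 and Hadha is not seen with the longest transcript as length.

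Some of these counts are uncertain. Cpt1b shared 79.7% of its 31-base words with Gm44502, Acot2 29.9% of its words with Acot1, Acot1 16.7% of its words with Acot2, and Acaa1a 16.9% with Acaa1b, so that reads could be split between copies. Etfb shared 47.3% with Gm45233 and Hadhb 19.5% with Gm13910. The sources do not say whether strand was used in the counting. Exons of Acadvl overlap those of Dvl2 on the opposite strand, and the same holds for Acad11 (Ackr4), Hadha (Garem2), Echs1 (Paox), Eci2 (Gm16984), Etfdh (4930579G24Rik), Acaa1a (Myd88), Acox3 (4931431C16Rik) and Crat (Dolpp1 and Gm16323).

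Isoproterenol was compared with no stimulation over all 3 LNAs, 9 libraries against 9, to see how the oxidation genes respond to adrenergic activation. A gene was called at an adjusted p below 0.05 (edgeR's quasi-likelihood test with Benjamini-Hochberg adjustment over all genes tested) and a log2 fold change beyond 0.5 in either direction. Pdk4 rose and Acot2 fell, and these were the only members called. Of all genes tested, 2.02% were called higher and 1.18% lower. The set as a whole was divided, with 15 members higher and 17 lower and a median log2 fold change of -0.01, against 0.00 over all genes. By adjusted p alone, 1 member was higher and 2 were lower, the added one being Hadh, against 2.67% and 1.91% of all genes.

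Pdk4 encodes a kinase that inactivates the pyruvate dehydrogenase complex and so turns cells from glucose to fatty acids. With ctrlA it stood at 171, 152 and 138 CPM in the unstimulated libraries (in the order 2, 3 and 4, as throughout) and at 268, 204 and 233 CPM with isoproterenol. With LNA1 it had 145, 114 and 109 CPM without and 239, 159 and 220.2 CPM with stimulation. With LNA2 the values were 159, 124 and 129.9 CPM against 198, 168 and 259 CPM. Within each number and LNA the stimulated library was higher, in 9 of 9 pairs, and over all libraries the ranges of both states overlapped. The log2 fold change was 0.65 (SE 0.11, adjusted p = 0.00303 by edgeR), and the pairs differed by 0.31 to 1.01.

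Acot2 encodes a mitochondrial thioesterase that splits acyl-CoA back into free fatty acid and CoA. The unstimulated ctrlA libraries had 50.3, 84.4 and 82.4 CPM, and those with isoproterenol 22.3, 45.2 and 47.7 CPM. LNA1 libraries had 38.3, 72.5 and 66.3 CPM before and 27.9, 46.2 and 43.9 CPM after stimulation. LNA2 libraries had 42.1, 67.9 and 68.3 CPM and 24.3, 42.6 and 40.9 CPM, respectively. The stimulated library was lower in 9 of 9 pairs, by 0.46 to 1.16 on the log2 scale, while the libraries numbered 2 were the lowest of every group and the states overlapped over all libraries. The log2 fold change was -0.74 (SE 0.20, adjusted p = 0.0456 by edgeR), and -0.75 with the block (adjusted p = 4.68e-09). With 1 library left out at a time the call without the block held in 3 of 18 cases (without number 2 of unstimulated ctrlA, LNA1 or LNA2), and the adjusted p ranged from 0.0274 to 0.101. Its near copy Acot1 was too low to read, at 0.190 to 0.979 CPM.

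Hadh encodes the hydroxyacyl-CoA dehydrogenase of medium and short chains. It had 414, 435 and 396 CPM in unstimulated ctrlA and 328, 368 and 349 CPM with isoproterenol. With LNA1 it had 386, 404 and 375 CPM and then 293, 305 and 297 CPM, and with LNA2 378, 399.7 and 343 CPM and then 287, 301 and 276 CPM. In 9 of 9 pairs the stimulated library was the lower one, although the ranges of both states overlapped. Its fitted difference was -0.34 on the log2 scale (SE 0.06, adjusted p = 0.00538 by edgeR), which did not reach the fold limit. Stimulation accounted for 69.1% of its sum of squares over the 18 libraries, the highest share of stimulation among the 32 genes.

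**Figure D2:**
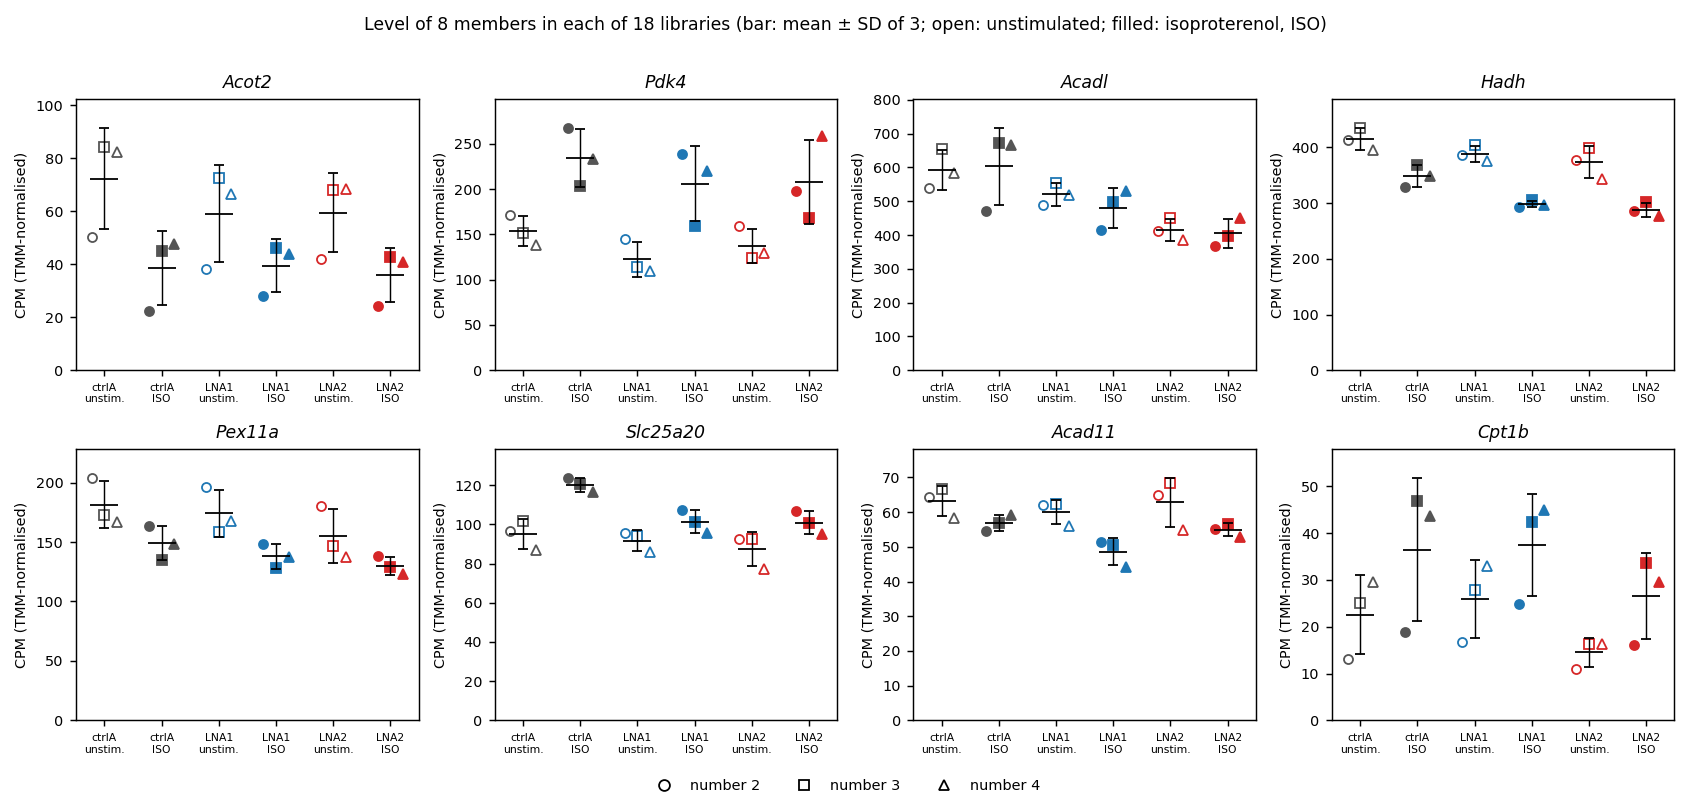
TMM-normalised CPM of 8 genes in each of the 18 libraries, by LNA and state (circles, squares and triangles for the numbers 2, 3 and 4; open for unstimulated and filled for isoproterenol; bars for the mean ± SD of 3). Within each LNA and number, Pdk4 is higher and Acot2 and Hadh are lower in the stimulated library, and Acadl steps down from ctrlA to LNA2.

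The carnitine shuttle, which moves acyl groups across the mitochondrial membranes, had 0 of 5 genes called by edgeR without the block over all 18 libraries, while DESeq2 called Cpt1b, against 2.6% of all genes higher. The log2 fold change was positive for all 5 (median 0.23), as it was for 7423 of all 14949 genes, and for Cpt2 (0.03, SE 0.08, higher in 5 of 9 pairs) and Crat (0.11, SE 0.16, higher in 6 of 9) it was within its error. Cpt1b, the muscle isoform of the outer membrane carnitine palmitoyltransferase, had 13.1, 25.1 and 29.6 CPM in unstimulated ctrlA and 18.9, 46.9 and 43.7 CPM with isoproterenol. The values with LNA1 were 16.8, 27.9 and 33.1 CPM against 24.9, 42.3 and 45.0 CPM, and with LNA2 11.0, 16.3 and 16.3 CPM against 16.1, 33.7 and 29.7 CPM. It was higher in 9 of 9 pairs, and the libraries numbered 2 were the lowest in every group. Its log2 fold change was 0.70 (SE 0.23, adjusted p = 0.114 by edgeR) and 0.69 with the block (SE 0.07, adjusted p = 1.5e-06). It was called by edgeR with the block, by edgeR without the libraries numbered 2, and by DESeq2.

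Slc25a20, the carrier that exchanges acylcarnitine for carnitine across the inner membrane, had 96.7, 102 and 86.9 CPM in unstimulated ctrlA and 124, 120.4 and 116 CPM with isoproterenol. With LNA1 it had 95.6, 93.9 and 85.7 CPM and then 107, 101 and 95.5 CPM, and with LNA2 92.7, 92.4 and 77.2 CPM and then 107, 101 and 95.2 CPM. The ctrlA libraries of the states did not overlap, and the stimulated library was higher in 9 of 9 pairs (log2 fold change 0.23, SE 0.07, adjusted p = 0.0695 without and 0.000108 with the block, by edgeR). Cpt1a, the liver isoform of the same transferase, was also higher in 9 of 9 pairs (0.44, SE 0.15, adjusted p = 0.126, and 0.000118 with the block). Cpt2 and Crat, the inner membrane and short-chain transferases, had 0.03 (SE 0.08) and 0.11 (SE 0.16). Ppara, the receptor itself, had 0.34 (SE 0.24, adjusted p = 0.615, and 0.00152 with the block) and was higher in 8 of 9 pairs.

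Pex11a, which drives the elongation and division of peroxisomes, had 204, 173 and 167 CPM in unstimulated ctrlA and 164, 135 and 148 CPM with isoproterenol. LNA1 libraries had 196, 159 and 167 CPM and then 149, 128 and 137 CPM, and LNA2 libraries 181, 147 and 138 CPM and then 138, 129 and 123 CPM. It was lower in 9 of 9 pairs (log2 fold change -0.29, SE 0.08, adjusted p = 0.0605 without and 3.1e-05 with the block, by edgeR). Acad11, a dehydrogenase of very long chains, had 64.5, 66.6 and 58.4 CPM and then 54.7, 56.8 and 59.1 CPM with ctrlA. With LNA1 it had 62.0, 62.3 and 55.9 CPM and then 51.5, 50.4 and 44.1 CPM, and with LNA2 65.0, 68.5 and 54.9 CPM and then 55.2, 56.7 and 53.0 CPM. It was lower in 8 of 9 pairs, ctrlA number 4 being the exception (-0.22, SE 0.07, adjusted p = 0.0928 without and 0.00114 with the block). Acat1, the acetoacetyl-CoA thiolase, was lower in 9 of 9 pairs (-0.33, SE 0.12, adjusted p = 0.17, and 5.81e-05 with the block), and so were Hsd17b4, the peroxisomal multifunctional protein (-0.16, SE 0.07), and Etfa (-0.12, SE 0.10).

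With the block, 3 members were called for isoproterenol (Pdk4 and Cpt1b higher, Acot2 lower), against 3.87% of all genes higher and 3.13% lower. By adjusted p alone with the block, 5 members were higher (Pdk4, Cpt1b, Cpt1a, Slc25a20 and Ppara) and 9 were lower, against 14.2% and 12.2% of all genes. In every one of the 9 pairs, 4 members were higher and 6 were lower, against 8.4% and 6.92% of all genes. Without the 6 libraries numbered 2 and without the block the same 3 genes were called, Pdk4, Cpt1b and Acot2, against 2.81% of all genes higher and 2.04% lower. With the block and by adjusted p alone 10 members passed without those libraries, 5 in each direction, against 7.01% of all genes higher and 6.1% lower.

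The LNAs were then compared with ctrlA over both states, 6 libraries against 6. The comparisons of LNA1 and of LNA2 share the ctrlA libraries, so what they have in common is not independent, and the values of each are given side by side. With LNA2 Acadl fell, and with LNA1 0 members were called. Among all genes, LNA1 called 0.401% higher and 0.0401% lower, and LNA2 0.983% higher and 0.442% lower. At an unadjusted p under 0.05 (edgeR) 5 members were lower with LNA1, against 1.92% of all genes, and 11 with LNA2, against 4.3%. DESeq2 called 0 members for LNA1, against 0.89% of all genes, and Acadl and Acadm for LNA2, both lower, against 0.689% of all genes lower. A negative log2 fold change was found for 27 of 32 members with LNA1 (median log2 fold change -0.14) and 30 of 32 with LNA2 (median -0.23), while the median over all genes was -0.02 for either LNA.

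Acadl encodes the long-chain acyl-CoA dehydrogenase, which catalyses the first step of the cycle. In unstimulated cells it had 539, 656 and 584 CPM with ctrlA, 488, 554 and 518 CPM with LNA1 and 411, 451 and 385 CPM with LNA2. With isoproterenol it had 471, 672 and 667 CPM with ctrlA, 416, 497 and 529 CPM with LNA1 and 368, 396 and 451 CPM with LNA2. All 3 LNA2 libraries lay below all 3 ctrlA libraries in both states, and LNA1 lay between them in 6 of 6 sets of the same number and state. The log2 fold change was -0.54 with LNA2 (SE 0.11, adjusted p = 0.0249 by edgeR, and 5.52e-05 with the block) and -0.26 with LNA1 (SE 0.11, adjusted p = 0.753). The call for LNA2 was lost without number 2 or 4 of unstimulated LNA2, number 2 or 3 of stimulated LNA2, or number 3 or 4 of either ctrlA group, and the adjusted p ranged from 0.0113 to 0.0867 over the 18 cases with 1 library left out. It was also lost without the filter on low counts (adjusted p = 0.153 by edgeR) and with only the 4 groups compared in the fit (0.0887).

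Of the other dehydrogenases, Acadm, which acts on medium chains, had 1149.7, 928 and 771 CPM with ctrlA, 1013, 827 and 703 CPM with LNA1 and 866, 677 and 548 CPM with LNA2 in unstimulated cells. With isoproterenol it had 956, 918 and 793 CPM with ctrlA, 805, 708 and 667 CPM with LNA1 and 764, 488 and 560.4 CPM with LNA2. Within each number the order was ctrlA, LNA1 and LNA2 in both states. When numbers were pooled, ctrlA and LNA2 overlapped in unstimulated cells but not with isoproterenol. The log2 fold change with LNA2 was -0.50 (SE 0.15, adjusted p = 0.155 by edgeR) and -0.51 with the block (adjusted p = 9.85e-05). Acadvl, Acads and Acad11 had -0.15, -0.05 and -0.03 with LNA2 and -0.13, -0.01 and -0.15 with LNA1.

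The enzymes after the first step all had negative values. The 6 genes of the hydratase, hydroxyacyl dehydrogenase and thiolase steps had a median log2 fold change of -0.18 with LNA1 and -0.30 with LNA2, and 0 of 6 were called. Hadha and Hadhb had -0.24 and -0.21 with LNA1 (SE 0.09 and 0.16) and -0.37 and -0.35 with LNA2 (SE 0.09 and 0.16), and both were lower in 6 of 6 pairs with either LNA. The adjusted p of Hadha with LNA2 was 0.0696 by edgeR and 0.00054 with the block. Hadh, Echs1 (the short-chain enoyl-CoA hydratase), Acaa2 and Acat1 had -0.21, -0.30, -0.31 and -0.26 with LNA2.

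The 3 auxiliary enzymes of unsaturated chains had negative values with both LNAs as well, and 0 of 3 were called. Decr1, the 2,4-dienoyl-CoA reductase, had 256, 187 and 181 CPM with ctrlA, 204, 145 and 142 CPM with LNA1 and 203, 140.4 and 121 CPM with LNA2 in unstimulated cells. With isoproterenol it had 262, 213 and 202 CPM, 196, 137 and 141 CPM, and 204, 113 and 144 CPM, respectively. The libraries numbered 2 were the highest of each group, and within each number and state both LNAs lay below ctrlA. Its log2 fold change was -0.43 with LNA1 (SE 0.18, adjusted p = 0.691 by edgeR, and 0.000834 with the block) and -0.49 with LNA2 (SE 0.18, adjusted p = 0.273, and 6.1e-05 with the block). Eci1 and Eci2, the enoyl-CoA isomerases, had -0.34 and -0.25 with LNA2 and -0.12 and -0.25 with LNA1. The 3 genes of electron transfer, Etfa, Etfb and Etfdh, had -0.26, -0.23 and -0.25 with LNA2 and -0.16, -0.20 and -0.07 with LNA1.

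The carnitine shuttle differed between its members. Cpt1b had -0.55 with LNA2 (SE 0.28, adjusted p = 0.547 by edgeR, and 0.000509 with the block) and 0.12 with LNA1 (SE 0.28). The latter ranged from -0.02 without number 2 of stimulated ctrlA to 0.24 without number 2 of stimulated LNA1. Cpt1a had 0.01 with LNA2 and 0.04 with LNA1. Cpt2, Slc25a20 and Crat had -0.20, -0.19 and -0.17 with LNA2 and 0.00, -0.15 and -0.10 with LNA1. Pdk4 had -0.26 (SE 0.14) with LNA1 and -0.17 (SE 0.14) with LNA2, the latter ranging from -0.26 to -0.10 when 1 library was left out. Acot2 had -0.13 and -0.19 (SE 0.24 each, with ranges of -0.25 to -0.01 and -0.31 to -0.07 when 1 library was left out). Ppara had -0.03 and -0.14 (SE 0.29 each).

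Of the 6 peroxisomal members, 5 had a negative log2 fold change with each LNA, and 0 of 6 were called. Acox3, an acyl-CoA oxidase of branched chains, was the exception. In unstimulated cells it had 26.3, 34.6 and 35.4 CPM with ctrlA, 28.1, 37.4 and 40.9 CPM with LNA1 and 29.9, 39.9 and 39.4 CPM with LNA2. With isoproterenol it had 21.0, 30.9 and 34.3 CPM with ctrlA, 22.4, 36.5 and 33.8 CPM with LNA1 and 30.1, 47.3 and 40.9 CPM with LNA2. LNA2 was above ctrlA in 6 of 6 pairs (log2 fold change 0.32, SE 0.17, adjusted p = 0.569 by edgeR, and 0.00102 with the block). Ehhadh, the bifunctional enzyme, had -0.41 with LNA1 (SE 0.13, adjusted p = 0.293, and 0.00862 with the block) and -0.23 with LNA2. Hsd17b4 had -0.23 and -0.25 with LNA1 and LNA2, and Pex11a -0.09 and -0.21. The value of Pex11a with LNA1 ranged from -0.13 to -0.03 when 1 library was left out. The thiolase Acaa1a had -0.12 and -0.02 (lower in 3 of 6 pairs with LNA2), and Abcd3, a transporter of acyl-CoA into peroxisomes, -0.03 and -0.19.

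**Figure D3:**
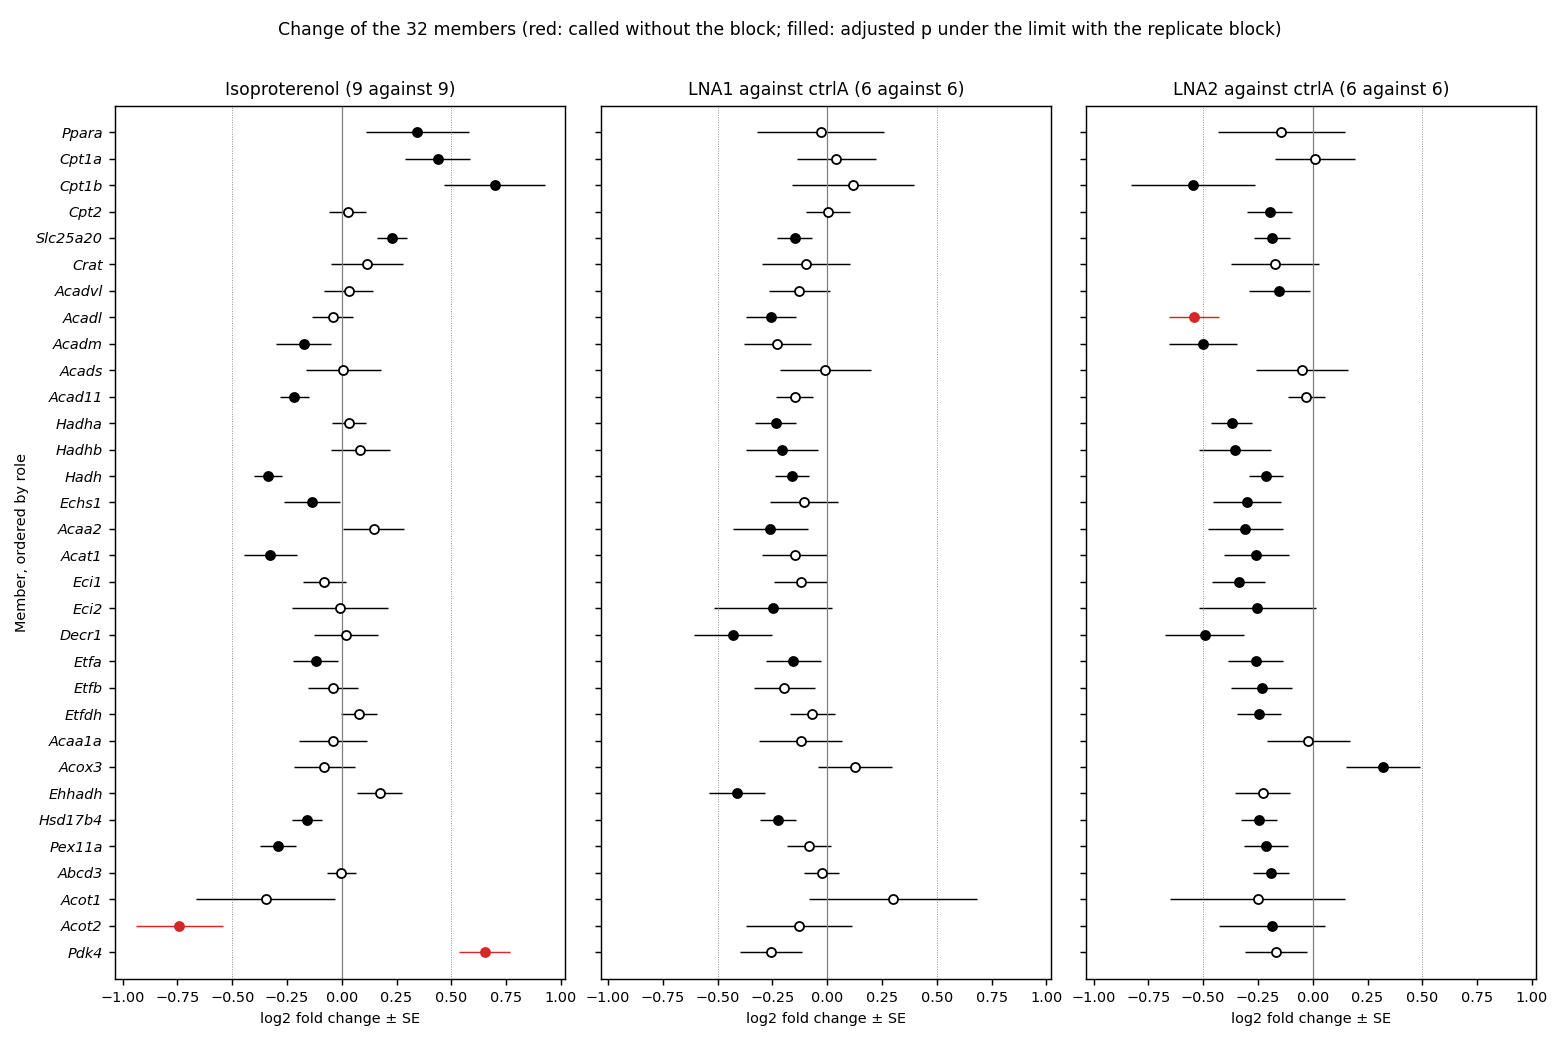
Log2 fold change ± SE of each of the 32 genes, ordered by role, for isoproterenol (9 libraries against 9) and for LNA1 and LNA2 against ctrlA (6 against 6). Red marks the genes called without the block (Pdk4 and Acot2 for isoproterenol, Acadl for LNA2), and filled points mark an adjusted p below 0.05 with the block.

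With the block, 0 members were called for LNA1, against 2.08% of all genes higher and 0.355% lower. By adjusted p alone, 11 members were lower and 0 higher with LNA1, against 4.03% and 3.77% of all genes. For LNA2 the block called 4 members (Acadl, Acadm, Decr1 and Cpt1b), all lower, against 1.75% of all genes lower and 3.77% higher. By adjusted p alone 22 members were lower and 1 (Acox3) was higher with LNA2, against 11.2% and 9.43% of all genes. Within every one of the 6 pairs, 18 members were lower and 0 higher with LNA1, against 12.1% and 8.03% of all genes. With LNA2 21 were lower and 1 was higher in every pair, against 12.1% and 9.92% of all genes. Without the libraries numbered 2 and without the block, LNA1 called 0 members, against 1.2% of all genes. LNA2 called Acadl, Acadm, Decr1 and Cpt1b, all lower, against 1.55% of all genes lower and 3.38% higher. Without them, by adjusted p alone with the block, 2 members were lower with LNA1 (Hadha and Decr1), against 0.714% of all genes. With LNA2 15 were lower and Acox3 was higher, against 5.33% and 6.57% of all genes.

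**Figure D4:**
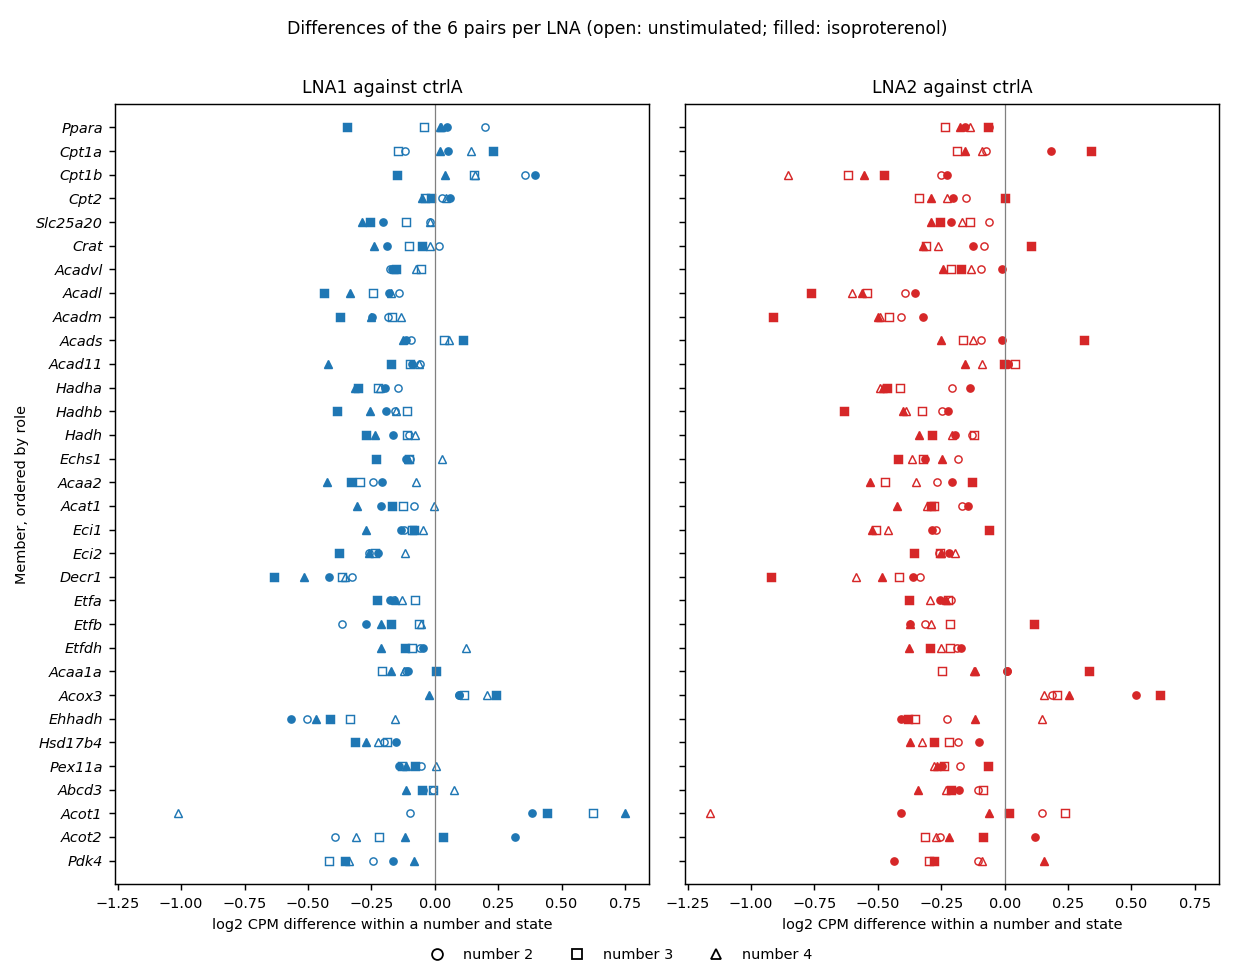
Difference in log2 CPM between each LNA and ctrlA within a number and state, 6 pairs per gene, for LNA1 (left) and LNA2 (right); open symbols are unstimulated and filled ones with isoproterenol. Acadl, Acadm, Hadha, Hadhb and Decr1 lie left of 0 in all 6 pairs with both LNAs, and Acox3 lies right of 0 in all 6 pairs with LNA2.

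The summed level of the 32 genes showed the same lean. It was 8978 ± 560.5 CPM in unstimulated ctrlA, 8205 ± 359 with LNA1 and 7379 ± 719 with LNA2 (SD, n = 3 each). With isoproterenol it was 9003 ± 264, 7747 ± 102 and 7352 ± 271 CPM, respectively. Within number and state LNA1 had 84.8% to 93.5% of the sum of ctrlA, and LNA2 78.2% to 86.4%. On this scale, not per kb, Hadha (811 CPM on average over the 18 libraries), Acadm (786) and Acadvl (688) weigh most in the sum.

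**Figure D5:**
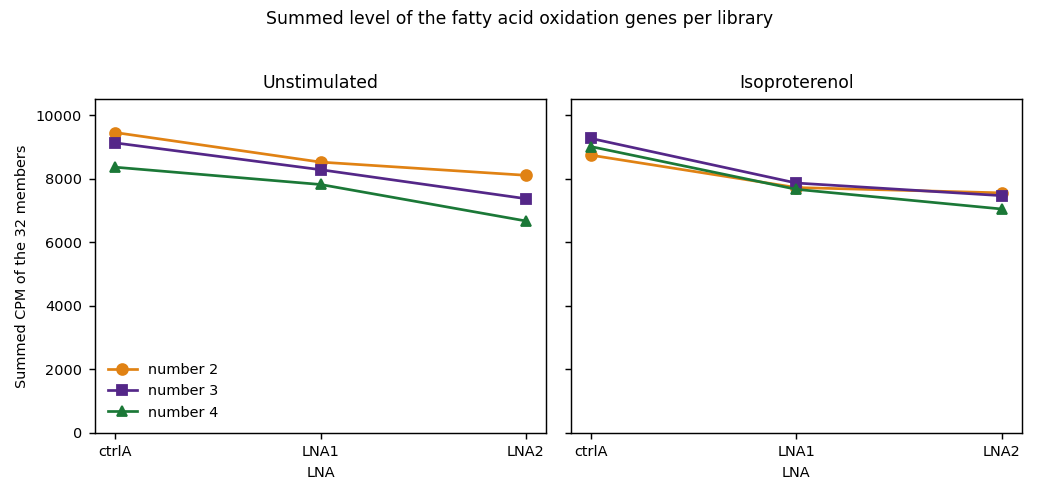
Summed CPM of the 32 genes per library, unstimulated (left) and with isoproterenol (right), with a line for each number joining ctrlA, LNA1 and LNA2. In every number and state the sum is highest with ctrlA and lowest with LNA2, and LNA2 has 78.2% to 86.4% of the ctrlA sum.

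Adipocyte markers outside the pathway were on the lower side too. Of 12 brown adipocyte markers tested, 11 had a lower value with LNA1 (median log2 fold change -0.12) and 10 with LNA2 (median -0.23), and 0 were called for either LNA. The median over all genes was -0.02 for either LNA, and without the block LNA1 called 0.0401% of them lower and LNA2 0.442%. By adjusted p alone with the block, the markers that passed were all lower. With LNA2 they were Ebf2 (-0.46, adjusted p = 0.00337 by edgeR), Pparg (-0.19, 0.00487), Ppargc1a (-0.31, 0.019) and Fabp4 (-0.23, 0.0303), against 11.2% of all genes lower. With LNA1 it was Plin1 (-0.23, 0.00449), against 4.03%. The summed level of the 13 markers listed was 14190.8 to 22720.9 CPM in unstimulated ctrlA, 12279.7 to 19454.3 with LNA1 and 12171.7 to 19063.1 with LNA2. With isoproterenol it was 10398.3 to 16949.8 CPM with ctrlA, 8886 to 16746.5 with LNA1 and 9200.2 to 14004 with LNA2. Pdgfra, a receptor of preadipocytes, rose with LNA1 (log2 fold change 0.89, adjusted p = 0.00743 by edgeR) and with LNA2 (0.71, adjusted p = 0.0121). Of the 4 other tested genes of its list, Ly6a had 0.15 and 0.57 with LNA1 and LNA2 (adjusted p = 0.855 for LNA2 by edgeR, and 0.00549 with the block). Cd34 had -0.34 and -0.67, Col1a1 -0.31 and -0.05, and Col3a1 -0.12 and -0.63 (adjusted p = 0.185 for LNA2 by edgeR, and 7.51e-06 with the block). Ly6a rose with isoproterenol (1.58, adjusted p = 0.0415 by edgeR). The summed preadipocyte and fibroblast list lay between 223 and 524 CPM over all groups, with overlap. The 5 macrophage markers summed to 8.23 to 12.7 CPM in unstimulated ctrlA, 11.5 to 15.3 with LNA1 and 14.1 to 28.6 with LNA2. With isoproterenol they summed to 12.1 to 24.8, 19.3 to 30.2 and 26.1 to 44.6 CPM, and most of this was Cd68, which rose with isoproterenol (0.90, adjusted p = 0.00618). With LNA2 the log2 fold change of Cd68 was 0.88 (adjusted p = 0.057 by edgeR, and 7.74e-05 with the block) and that of Csf1r 1.73 (adjusted p = 0.137, and 0.00677 with the block), and with LNA1 they were 0.40 and -0.42 (adjusted p with the block 0.0408 and 0.74). The part of these markers in the lower level of the oxidation genes was not tested.

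LNA2 was also compared directly with LNA1, 6 libraries against 6. Without the block 0 members were called, against 0.334% of all genes higher and 0.589% lower. At an unadjusted p under 0.05 there were 2 by edgeR, both lower with LNA2 (Acadl with -0.29 and Cpt1b with -0.66), against 4.56% of all genes lower. DESeq2 called 0 members, against 1.55% of all genes. With the block Cpt1b was called (-0.66, SE 0.08, adjusted p = 0.00011), against 2.46% of all genes lower. In unstimulated cells its LNA2 libraries had 11.0, 16.3 and 16.3 CPM and its LNA1 libraries 16.8, 27.9 and 33.1 CPM. By adjusted p alone with the block, 8 members were lower with LNA2 than with LNA1 (Cpt1b, Cpt2, Acadl, Acadm, Echs1, Eci1, Etfdh and Abcd3) and Acox3 was higher, against 7.2% and 8.23% of all genes. Without the libraries numbered 2 4 members passed, all lower (Cpt1b, Acadl, Acadm and Hadha), against 3.82% of all genes.

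Whether the response to isoproterenol differed with each LNA was tested as an interaction. It was called for 0 members with LNA1 and for 0 with LNA2, and for 0% of all genes in either case, with or without the block. At an unadjusted p under 0.05 there were 0 members for either LNA without the block, against 0.702% of all genes for LNA1 and 0.776% for LNA2. With the block there were 2 for LNA1 and 1 for LNA2, against 2.63% and 5.4%. DESeq2 called 0 for both, against 0% of all genes for LNA1 and 0.0134% for LNA2. Without the block the SE of an interaction was 0.23 for Acadl and 0.56 for Cpt1b on the log2 scale, so that small differences were not detectable in that fit. In the joint test of all 6 groups at an adjusted p of 0.001, 0 members were called, against 0.455% of all genes. At an unadjusted p under 0.05 there were 9 members, against 11.3% of all genes, and DESeq2 called 4 (Slc25a20, Hadh, Hsd17b4 and Pdk4), against 3.72%. With the block 13 members were called, against 8.93% of all genes, and without the libraries numbered 2 there were 2 with or without the block (Cpt1b and Acot2), against 1% and 0.741%.

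Within a single LNA or state, with 3 libraries against 3, 0 members were called without the block in any of 7 comparisons. Among all genes, isoproterenol called 0.488% with ctrlA, 0.702% with LNA1 and 0.395% with LNA2. LNA1 called 0% of all genes in unstimulated and 0.0134% in stimulated cells, and LNA2 0.194% and 0.207%. Unadjusted p-values under 0.05 were found for 4 members for isoproterenol with each LNA, against 5.43% of all genes with ctrlA, 6.94% with LNA1 and 5.99% with LNA2. They were found for 0 members with LNA1 in unstimulated and 3 in stimulated cells (2.86% and 3.82% of all genes), and for 3 and 7 members with LNA2 (4.71% and 7.12%). With the block, isoproterenol called Cpt1b, Acot2 and Pdk4 with ctrlA (4.03% of all genes) and with LNA1 (5.04%), and these genes and Cpt1a with LNA2 (4.25%). LNA1 called 0 members in unstimulated cells (0.602% of all genes) and Decr1 in stimulated cells (1.45%). LNA2 called Acadl and Cpt1b in unstimulated cells (2.79%), and Acadl, Acadm and Decr1 in stimulated cells (5.51%).

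The replicate number was the source with the highest median share of the spread of the members. This share of the sum of squares of log2 CPM was 46.9% over the 32 genes, against 49.4% over all genes tested. The LNA accounted for 20.9% against 8.26%, and stimulation for 6.26% against 4.32%. The number was the largest of these sources for 20 members, up to 91.8% for Acads, the short-chain dehydrogenase, and 91.0% for Eci2. The LNA was the largest for 7, with Hadha at 69.8% and Acadl at 69.0%. Stimulation was the largest for 5, Hadh, Pdk4 (66.7%), Acad11, Pex11a and Slc25a20.

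Genes next to the members in the pathway were taken from lists. Without the block, isoproterenol called 2.02% of all genes higher and 1.18% lower, LNA1 0.401% and 0.0401%, and LNA2 0.983% and 0.442%. The list counts without the block are to be read beside these shares. Of 20 other mitochondrial genes tested, 0 were called for isoproterenol or LNA1 and 1 for LNA2 without the block. This was Cpt1c, a brain-type homologue of the carnitine palmitoyltransferases, which rose by 1.09 on the log2 scale (adjusted p = 0.00442 by edgeR), from 4.54 to 6.93 CPM with ctrlA to 9.75 to 20.5 CPM with LNA2. Beyond the fold limit, the block also brought the adjusted p under 0.05 for Cpt1c with LNA1 and for Slc25a29 with LNA2. Cpt1c had 0.57 with LNA1 (adjusted p = 0.0143 with the block) and Slc25a29 0.59 with LNA2 (0.0073). Among all genes the block called 2.08% higher with LNA1 and 3.77% with LNA2. Of 31 other peroxisomal genes tested, 2 were called for isoproterenol without the block. The thiolase Acaa1b rose (0.60, adjusted p = 0.00405 by edgeR) and Abcd2, a peroxisomal fatty acid transporter, fell (-0.84, adjusted p = 0.00191). LNA2 called 2 of the 31, both lower, Acaa1b (-0.64, adjusted p = 0.0263) and Pxmp2, a peroxisomal membrane channel (-0.82, adjusted p = 0.0015), and LNA1 called 0. Beyond the fold limit, the block also brought the adjusted p under 0.05 for Ephx2 and Pex5 with isoproterenol. Ephx2 had 1.23 (adjusted p = 3.95e-10 with the block) and Pex5 0.56 (1.75e-07), against 3.87% of all genes called higher. The same held for Ephx2 with LNA2 (-0.66, adjusted p = 2.08e-05 with the block), against 1.75% of all genes called lower. Acaa1b shares sequence with the member Acaa1a, which was not called.

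Of 15 regulators tested, Ppargc1a, the coactivator of mitochondrial biogenesis, rose with isoproterenol (0.56, adjusted p = 0.00147 by edgeR), and 0 were called for either LNA. Among all genes, isoproterenol called 2.02% higher and 1.18% lower without the block. Of 9 PPARA targets outside oxidation, 2 rose with isoproterenol without the block, the lipid droplet proteins Plin5 (1.21, adjusted p = 1.9e-06) and Cidea (1.27, adjusted p = 0.0011), and 0 were called for either LNA. Ucp2 had 0.62 with isoproterenol, and its adjusted p was 0.0572 without and 1.37e-06 with the block, against 3.87% of all genes called higher with the block. None of the 10 genes of the pyruvate dehydrogenase complex and its kinases and phosphatases was called in these 3 comparisons, nor either of the 2 ketone body genes tested. With the block and by adjusted p alone, LNA2 gave 7 of these 10 genes lower and 1 higher, against 11.2% and 9.43% of all genes. In that setting it gave 4 of the 20 other mitochondrial genes lower and 4 higher, and 12 of the 31 other peroxisomal genes lower and 3 higher. Of the 15 regulators 3 were lower and 0 higher, of the 9 PPARA targets 2 and 0, and of the 2 ketone body genes 1 and 0. Ucp1 rose by 3.51 with isoproterenol (adjusted p = 1.12e-08), a larger log2 fold change than that of any of the 32 oxidation genes, and Adipoq, an adipocyte hormone, fell (-0.71, adjusted p = 0.0073).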

How the data were processed

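Polyadenylated RNA of the 18 libraries was prepared with NEBNext Ultra II and sequenced in pairs on a NovaSeq. Per the labels and methods, the authors used cutadapt for trimming and salmon with Gencode M22 (GRCm38) for quantification; versions, use of strand and the summing of transcripts to genes are not given in the sources used here. The deposited values are expected counts per gene, not scaled to depth, and 0 of them were other than whole numbers. The floor of detection takes in counting error alone, as the reads had no molecular identifiers.

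From these counts, genes were kept by filterByExpr (minimum count 10, minimum total 15), normalised by TMM and tested in edgeR 4.0.16 (R 4.3.3) with 1 term per group over all 18 libraries, glmQLFTest, two-sided, adjusted over all 14949 genes. Calls needed an adjusted p under 0.05 and a log2 fold change beyond 0.5, interactions an adjusted p under 0.05 and the joint test under 0.001. Fold changes come from the fit, and SEs from its F statistic. The model was tested on simulated data, and no result of that test is used here. The genes and lists were chosen with earlier results of these data known. Library values are printed for the members called in an averaged comparison, filled to 8 by the smallest p for isoproterenol, and those of Acadm, Decr1 and Acox3 were added after their values were seen. Same-numbered libraries were compared by the correlation of their deviations from group means over 14949 genes. It was 0.649 to 0.722 for number 2, 0.252 to 0.505 for number 3 and 0.240 to 0.470 for number 4 (15 pairs each), and 17 of 18 libraries correlated best with their own number, so the numbers were taken to pair the samples. Alternatives were DESeq2 1.42.0, its size factors, no filter, only the groups compared, the replicate block, and leaving out each library or the 6 numbered 2. Positions, exon lengths and shared words come from GENCODE M21 of GRCm38, 1 release older than that of the authors, and promoters from RefSeq.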

Additional observations from a re-analysis of the deposited data

Results flagged for a closer look

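Decr1 had a positive response to isoproterenol in all 3 pairs with ctrlA (log2 fold change 0.12) and a negative one in all 3 pairs with LNA1 (-0.05), a difference of -0.17 between LNA1 and ctrlA. The interaction was not called (adjusted p = 1.00 by edgeR, with or without the block). Acox3 had a negative response in all 3 pairs with ctrlA (-0.16) and a positive one in all 3 pairs with LNA2 (0.12), a difference of 0.28 that was not called either (adjusted p = 1.00 by edgeR, and 0.810 with the block). Acox3 was also lower in all 3 pairs with LNA1 (-0.20), which gave a difference of 0.31 between LNA2 and LNA1 that was not tested.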

How the results depend on the processing

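Without the block 2 members were called for isoproterenol, 0 for LNA1, 1 for LNA2, 0 for LNA2 against LNA1, 0 for each interaction and 0 in the joint test. DESeq2 called 3 for isoproterenol (Cpt1b beside Acot2 and Pdk4, against 4.21% of all genes), 2 for LNA2 and 4 in the joint test, and without a filter on low counts LNA2 called 0, since Acadl had an adjusted p of 0.153 there. With the replicate block LNA2 called 4 members, LNA2 against LNA1 called 1 and the joint test 13. Without the 6 libraries numbered 2, these counts were 4, 1 and 2, and they were the same with the block. By adjusted p alone with the replicate block the counts were 14 for isoproterenol, 11 for LNA1, 23 for LNA2 and 9 for LNA2 against LNA1, and without the libraries numbered 2 they were 10, 2, 16 and 4. These settings by adjusted p alone with the block, and those without number 2 with the block, were chosen after seeing the data. With 1 library left out at a time, isoproterenol called 1 to 2 members, LNA2 called 0 to 1 and the other comparisons 0. Among the 8 members with library values by rule, the sign changed for Acadl with isoproterenol (0.0143 without the libraries numbered 2, 0.0156 without them and with the block, and -0.0696 to 0.00502 with 1 library left out), for Cpt1b with LNA1 (-0.0231 to 0.24) and for Acad11 with LNA2 (-0.0634 to 0.0140), all of them not called, and the cause was not tested. With only the 4 groups compared in the fit, the adjusted p of Acadl with LNA2 was 0.0887. Pdk4 was called in 18 of 18 cases with 1 library left out (0.59 to 0.70). With DESeq2 size factors 16 members were lower with isoproterenol in place of 17, and without the libraries numbered 2 14 were. With 1 library left out, 14 to 18 members were lower with isoproterenol, 23 to 30 with LNA1, 27 to 31 with LNA2 and 21 to 27 with LNA2 against LNA1. Per kb of the longest transcript Hadh had 93.8, Pex11a 69.0, Slc25a20 36.1 and Acad11 16.7 CPM. Counts of 2 to 12 for Acot1 and 1 to 14 for Gm15551 limit what can be said of them.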
